A study of Mus musculus with 12 samples.

Results

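The genes described here are 4 Id genes, Id1, Id2, Id3 and Id4, and 4 signalling Smads, Smad1, Smad4, Smad5 and Smad9. They were taken by name from the pathway of bone morphogenetic proteins (BMPs), with earlier results of these data known. They are 8 of the 47643 genes listed for each library. All 8 passed the filter on low counts and are among the 13229 genes tested. They were measured in C3H/10T1/2, a mouse embryonic cell line of fibroblast morphology that can take up cartilage, bone or fat fates. The cells were transfected transiently, without a virus, with 0.5 µg of plasmid per cm2 using TurboFect. The medium was exchanged after 4 h, and RNA was collected on day 3. The groups were BMP2ADV20a, BMP2ADV148b and BMP2ADV590, which received hybrid plasmids encoding BMP2 together with miR-20a, miR-148b or miR-590, and BMP2ADV, which received the BMP2 plasmid without a miRNA. Each group had 3 libraries, and every group carried a BMP2 plasmid. No untransfected group was analysed here, so the values below set hybrid plasmids against the BMP2 plasmid, and the effect of BMP2 itself is not among them.

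BMP ligands bind paired type I and type II receptors, and the activated type I receptor phosphorylates the receptor-regulated Smads encoded by Smad1, Smad5 and Smad9. These form a complex with the common partner Smad4, enter the nucleus and bind regulatory DNA, with the Id genes among their fastest and most direct targets. Id proteins have a helix-loop-helix but no DNA-binding region, and they hold E proteins and other helix-loop-helix factors away from DNA, which delays differentiation in many mesenchymal and neural lineages. Transcript levels of Smads do not report their phosphorylation, which was not measured here.

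Reads were taken mainly from the 3′ ends of polyadenylated transcripts (QuantSeq 3′ FWD), so a transcript yields about the same number of reads whatever its length. Levels are given as TMM-scaled CPM, counts scaled to a common library size, and can be set side by side between genes on that scale. Gene counts per library ranged between 9236431 and 14727288, and the genes detected between 17086 and 18055. The share of Gm42418, whose gene model covers ribosomal RNA, was 4.07% to 10.0%. The mean correlation of log2 CPM with the rest of its group was 0.978 to 0.982 for every library. As a check of the labels, BMP2ADV148b libraries held 211, 215 and 204 counts of Mir148b and the remaining 9 held 0, whereas Mir20a had 0 in all 12, so the BMP2ADV20a and BMP2ADV590 labels were not checked by their miRNAs. All 9 fibroblast or mesenchymal markers were tested, with a summed level of 16838 to 19639.5 CPM. None of 6 skeletal muscle markers was tested, and Myod1, Ckm and Mymk were at 0 in every library. Of the endothelial markers 1 of 5 was tested, with Cdh5 at 0 and a sum of 5.51 to 12.6 CPM, of which Tek made up 4.02 to 10.8 CPM. Of the epithelial markers 1 of 5 was tested, with Krt8 and Cldn4 at 0 and a sum of 1.16 to 3.18 CPM. Macrophage markers, 3 of 5 tested, summed to 1.82 to 4.98 CPM with Adgre1 at 0, and neural markers, 2 of 5 tested, to 9.45 to 27.6 CPM with Sox10 at 0 and Tubb3 at up to 26.9 CPM. Adipocyte markers, 3 of 5 tested, summed to 25.9 to 56.5 CPM with Plin1 at 0 and Pparg, Cebpa and Fabp4 at up to 27.0, 19.2 and 14.8 CPM. Osteoblast markers, 2 of 5 tested, summed to 2.09 to 7.26 CPM. Whether replicates are separate cultures is not stated in the labels, so p-values measure the spread between these samples, which may be technical. In bulk RNA, fewer cells expressing a gene and less RNA per cell cannot be told apart.

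Because a miRNA can act on a member directly, the seeds of miR-20a and miR-148b, at bases 2 to 8 and in capitals below, were searched as their 7-base complements in the longest annotated 3′ UTR of each member. Mature sequences are from RefSeq (GRCm38.p6), which matched 2 of the 3 plasmid miRNAs, and are printed 5′ to 3′ for the arms with a site in Id4 or Smad5.
mmu-miR-20a-5p: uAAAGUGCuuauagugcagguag
mmu-miR-148b-3p: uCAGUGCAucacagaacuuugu
The miR-20a-5p complement GCACTTT was found once in Id4 and once in Smad5, and in 15.057% of the 11583 tested genes with an annotated 3′ UTR. The miR-148b-3p complement TGCACTG was found in Smad5 alone among the 8 genes, at 3 places, and in 15.764% of the 11583. The sites are shown with their surroundings, the complement in capitals, because they mark where the plasmid miRNAs could pair with members whose levels follow.
Id4, miR-20a-5p, chr13:48265186-48265214, plus strand: tattaaaaaggGCACTTTttgccttttgg
Smad5, miR-20a-5p, chr13:56738245-56738273, plus strand: cttttcattttGCACTTTtatgggtgact
Smad5, miR-148b-3p, chr13:56739635-56739663, plus strand: gacagcaagtgTGCACTGaaccacagagg
Smad5, miR-148b-3p, chr13:56740981-56741009, plus strand: gattacaggcaTGCACTGcagagtacagt
Smad5, miR-148b-3p, chr13:56742146-56742174, plus strand: cagacgatggcTGCACTGtaggtctgcct
Coordinates are on GRCm38, and a match describes letters only. The seed of miR-590 was not searched here. The other arm of each was searched as well. The complement of miR-20a-3p, AATGCAG, was found in Smad9 and in 13.459% of the 11583 genes. The complement of miR-148b-5p, AGAACTT, was found in Smad4 and Smad9 and in 15.687%. Id1, Id2, Id3 and Smad1 held none of the 4 complements. Their 3′ UTRs were 563, 785, 536 and 2041 bases long, against 3093 bases in Id4, 1249 in Smad4, 4899 in Smad5 and 3756 in Smad9 and a median of 1220 over the tested genes.

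None of the 8 genes passed the test in any comparison. At an adjusted p of 0.05 (edgeR quasi-likelihood test, Benjamini-Hochberg over all 13229 genes), 0 of 8 were called in BMP2ADV20a against BMP2ADV, where 0.476% of all tested genes were called. The count was also 0 of 8 in BMP2ADV148b against BMP2ADV, with 0.249% of all genes called, and 0 of 8 in BMP2ADV590 against BMP2ADV, with 8.26% called. Between hybrid plasmids it was 0 of 8 in BMP2ADV590 against BMP2ADV20a (2.17% of all genes), in BMP2ADV590 against BMP2ADV148b (4.43%) and in BMP2ADV20a against BMP2ADV148b (0.559%). A test of any difference among the 4 groups called 0 of 8, against 6.25% of all genes, and none of the 8 had an unadjusted p under 0.05 there, against 19.2%. DESeq2 and limma-voom also called 0 in each of the 6 comparisons. At an unadjusted p under 0.05 in edgeR, 4 of the 48 values of the 8 genes in the 6 comparisons stood out, which were Id3 in BMP2ADV148b and in BMP2ADV590 against BMP2ADV, and Id4 in BMP2ADV590 against both other hybrids. Over all genes, the unadjusted share was 9.87% in BMP2ADV20a, 8.43% in BMP2ADV148b and 21.2% in BMP2ADV590 against BMP2ADV. It was 14.4% in BMP2ADV590 against BMP2ADV20a, 17.1% in BMP2ADV590 against BMP2ADV148b and 7.79% in BMP2ADV20a against BMP2ADV148b. The median log2 fold change of the 8 genes was -0.02 in BMP2ADV20a, -0.06 in BMP2ADV148b and 0.05 in BMP2ADV590 against BMP2ADV, where the medians over all tested genes were -0.0018, -0.0004 and 0.0020. An absent call does not show equal levels, so the interval of each difference is given with it below. The comparisons with BMP2ADV share their 3 control libraries and are not independent of each other.

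**Figure D1:**
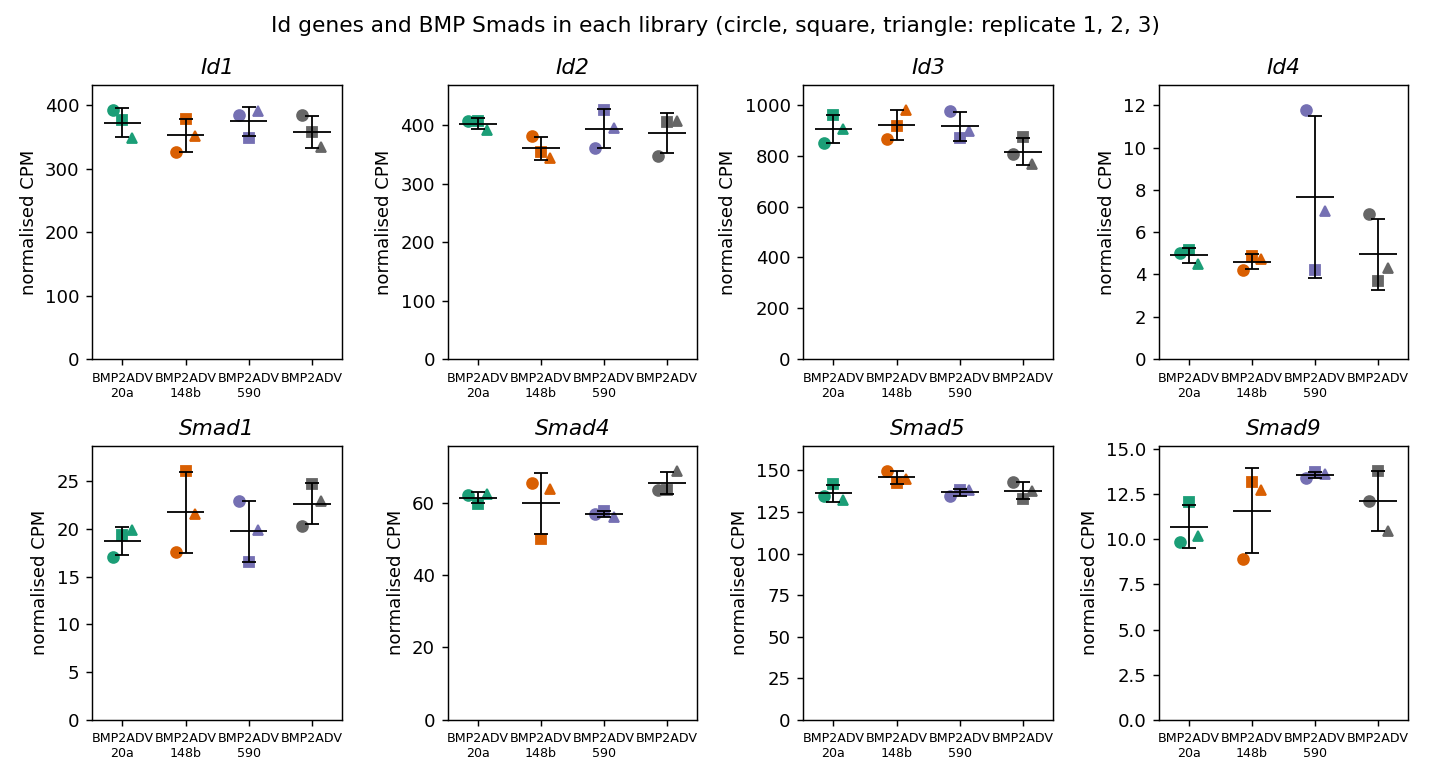
Normalised CPM of each of the 8 genes (vertical axes, from 0) in every library, with groups along the horizontal axes. Circles, squares and triangles are replicates 1, 2 and 3, and the bars are the mean and SD of 3 libraries. All groups overlap for Id1, Id3 and Id4, at least 1 pair of groups does not for each of the other 5 genes, and Id4 in BMP2ADV590 spreads from 4.21 to 11.8 CPM.

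Smad5 (ENSMUSG00000021540, chr13:56703010-56742377) carried most of the receptor-regulated Smad transcript, with 77.5% to 85.0% of the summed CPM of Smad1, Smad5 and Smad9 in a library. It had 135, 141.7 and 132 CPM in BMP2ADV20a, 149.9, 142.3 and 145 in BMP2ADV148b, 135, 138 and 138 in BMP2ADV590, and 143, 133 and 138 in BMP2ADV. The 3 hybrid groups overlapped BMP2ADV, while all 3 BMP2ADV148b libraries lay above the BMP2ADV20a and BMP2ADV590 libraries. With its 3 miR-148b-3p complements, Smad5 averaged 145.8 ± 3.82 CPM in BMP2ADV148b and 138 ± 5.24 in BMP2ADV (SD, n = 3 each), a log2 fold change of 0.08 (95% interval -0.07 to 0.24). With its single miR-20a-5p complement it averaged 136 ± 4.95 CPM in BMP2ADV20a, a log2 fold change of -0.02 (-0.17 to 0.14). In BMP2ADV590 the log2 fold change was -0.01 (-0.17 to 0.14). Across the 3 comparisons the intervals allow a change from 11.3% lower to 17.7% higher. Against BMP2ADV148b, the log2 fold change was -0.09 in BMP2ADV590 (adjusted p = 0.605) and -0.10 in BMP2ADV20a (adjusted p = 0.824). A further 3 gene models lie within Smad5 on its strand, and each had 0 counts in every library.

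Smad1 (ENSMUSG00000031681, chr8:79338395-79399518), the second receptor-regulated Smad, was scarcer, at 9.79% to 14.4% of their summed CPM. It had 17.1, 19.3 and 19.9 CPM in BMP2ADV20a, 17.6, 26.1 and 21.6 in BMP2ADV148b, 22.9, 16.5 and 19.8 in BMP2ADV590, and 20.3, 24.7 and 22.9 in BMP2ADV. All 3 BMP2ADV20a libraries lay below all 3 BMP2ADV libraries, and the other hybrid groups overlapped BMP2ADV. Against BMP2ADV, the log2 fold change was -0.27 in BMP2ADV20a (-0.60 to 0.05, adjusted p = 0.588), -0.06 in BMP2ADV148b (-0.38 to 0.27) and -0.19 in BMP2ADV590 (-0.52 to 0.13). At 172 to 324 counts per library, changes between 33.9% lower and 20.6% higher were within these intervals.

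Smad9 (ENSMUSG00000027796, chr3:54755582-54801257) encodes the third receptor-regulated Smad, a weaker activator than its relatives, and made up 5.05% to 8.14% of the summed CPM. It had 9.86, 12.05 and 10.2 CPM in BMP2ADV20a, 8.91, 13.2 and 12.7 in BMP2ADV148b, 13.4, 13.7 and 13.6 in BMP2ADV590, and 12.1, 13.8 and 10.5 in BMP2ADV. The BMP2ADV590 libraries were the closest to each other and all lay above every BMP2ADV20a and BMP2ADV148b library, but one BMP2ADV library was higher still. The log2 fold change was 0.34 in BMP2ADV590 against BMP2ADV20a (-0.03 to 0.71, adjusted p = 0.392) and 0.23 against BMP2ADV148b (adjusted p = 0.585). Against BMP2ADV it was -0.18 in BMP2ADV20a (-0.55 to 0.19), -0.07 in BMP2ADV148b (-0.45 to 0.31) and 0.16 in BMP2ADV590 (-0.21 to 0.53). The summed CPM of the 3 receptor-regulated Smads averaged 166 ± 6.46 in BMP2ADV20a, 179 ± 2.59 in BMP2ADV148b, 170.2 ± 1.60 in BMP2ADV590 and 173 ± 2.61 in BMP2ADV (SD, n = 3 each).

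Smad4 (ENSMUSG00000024515), the common partner that the BMP and TGF-beta branches share, had 62.2, 59.8 and 62.3 CPM in BMP2ADV20a, 65.5, 50.1 and 63.8 in BMP2ADV148b, 57.0, 57.8 and 56.2 in BMP2ADV590, and 63.7, 63.6 and 68.9 in BMP2ADV. Every BMP2ADV20a and BMP2ADV590 library lay below every BMP2ADV library, and the BMP2ADV590 libraries also lay below those of BMP2ADV20a. In BMP2ADV148b, replicate 2 was the lowest of all 12 libraries and replicates 1 and 3 fell among the BMP2ADV values. Relative to BMP2ADV, the log2 fold change was -0.20 in BMP2ADV590 (-0.40 to 0.01, adjusted p = 0.265), -0.09 in BMP2ADV20a (-0.29 to 0.12, adjusted p = 0.827) and -0.13 in BMP2ADV148b (-0.34 to 0.08, adjusted p = 0.778). The intervals allow a change from 24.5% lower to 8.47% higher. AC132418.2 overlaps Smad4 on the opposite strand, and its counts were not used here.

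Among the 8 genes, libraries of the 2 groups did not overlap for 2 in BMP2ADV20a against BMP2ADV (Smad1 and Smad4, both lower), where this held for 16.5% of all tested genes. It held for 0 in BMP2ADV148b against BMP2ADV (14.7% of all genes) and for 1, Smad4, in BMP2ADV590 against BMP2ADV (25.1%). Between hybrids it held for 2 in BMP2ADV590 against BMP2ADV20a (Smad9 higher and Smad4 lower, 19.1% of all genes). It held for 2 in BMP2ADV590 against BMP2ADV148b (Smad9 higher and Smad5 lower, 20.8%) and for 2 in BMP2ADV20a against BMP2ADV148b (Id2 higher and Smad5 lower, 14%). With 8 genes, these counts are near the shares over all genes.

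**Figure D2:**
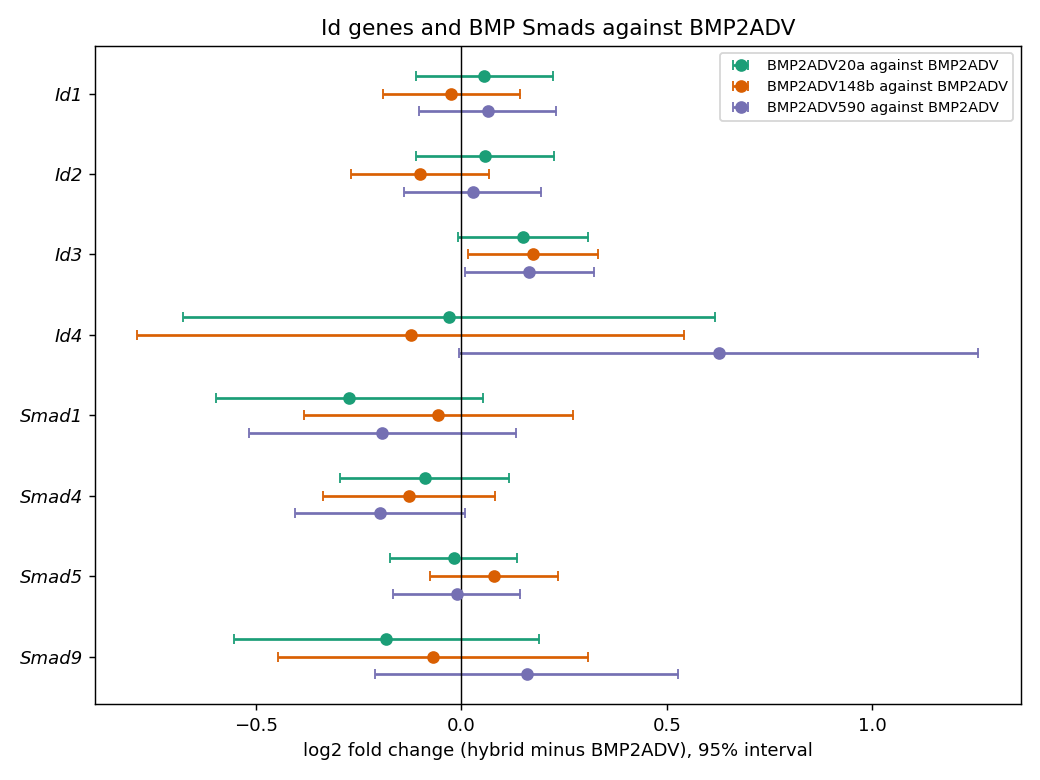
Log2 fold change of each of the 8 genes (horizontal axis, hybrid minus BMP2ADV) with its 95% interval from the edgeR fit, in BMP2ADV20a, BMP2ADV148b and BMP2ADV590. The intervals of Id1, Id2, Id3 and Smad5 are narrow, and that of Id4 in BMP2ADV590 reaches 1.26.

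The Id genes were abundant apart from Id4. Mean CPM over the 12 libraries placed Id3 at rank 123 of the 13229 tested genes, Id2 at 363 and Id1 at 388, whereas Id4 was at rank 9882. Among the Smads, Smad5 was at rank 1360, Smad4 at 3234, Smad1 at 6750 and Smad9 at 8321. Id3 made up 50.8% to 58.3% of the summed Id CPM of a library, Id2 20.5% to 26.9%, Id1 20.7% to 24.8% and Id4 0.226% to 0.680%. The order Id3, then Id2 and Id1 close together, then Id4 thus held in each group. The summed Id level averaged 1686 ± 54.9 CPM in BMP2ADV20a, 1639 ± 53.7 in BMP2ADV148b, 1692 ± 42.5 in BMP2ADV590 and 1566 ± 66.0 in BMP2ADV (SD, n = 3 each).

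Id1 (ENSMUSG00000042745, chr2:152736251-152737410), the Id gene most often read as a sign of BMP-Smad activity, had 393, 376 and 348 CPM in BMP2ADV20a, 327, 379 and 352 in BMP2ADV148b, 385, 349 and 391 in BMP2ADV590, and 384, 357 and 334 in BMP2ADV. The 4 groups overlapped throughout. The log2 fold change was 0.06 in BMP2ADV20a (-0.11 to 0.22), -0.02 in BMP2ADV148b (-0.19 to 0.14) and 0.06 in BMP2ADV590 (-0.10 to 0.23), so that the intervals allow 12.4% lower to 17.4% higher at most.

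Id2 (ENSMUSG00000020644, chr12:25093799-25097140), which is also known to bind the retinoblastoma protein, had 408, 408 and 391 CPM in BMP2ADV20a, 382, 354 and 344 in BMP2ADV148b, 360.3, 426 and 396 in BMP2ADV590, and 347, 406 and 407 in BMP2ADV. All BMP2ADV20a libraries lay above all BMP2ADV148b libraries, and every hybrid group overlapped BMP2ADV. The log2 fold change was 0.16 in BMP2ADV20a against BMP2ADV148b (-0.01 to 0.33, adjusted p = 0.673). Against BMP2ADV it was 0.06 in BMP2ADV20a (-0.11 to 0.22), -0.10 in BMP2ADV148b (-0.27 to 0.07) and 0.03 in BMP2ADV590 (-0.14 to 0.20).

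Id3 (ENSMUSG00000007872, chr4:136143497-136145755), the most abundant of the 8 genes, had 852, 959 and 906 CPM in BMP2ADV20a, 865, 917 and 981 in BMP2ADV148b, 978, 870.3 and 899.7 in BMP2ADV590, and 807, 874 and 769 in BMP2ADV. In each hybrid group only the lowest library fell under the highest BMP2ADV library, which was replicate 2 at 874 CPM. Its log2 fold change against BMP2ADV was 0.15 in BMP2ADV20a (-0.01 to 0.31, adjusted p = 0.529), 0.17 in BMP2ADV148b (0.02 to 0.33, adjusted p = 0.541) and 0.17 in BMP2ADV590 (0.01 to 0.32, adjusted p = 0.208). Unadjusted p-values were 0.0320 in BMP2ADV148b and 0.0402 in BMP2ADV590, in comparisons where 8.43% and 21.2% of all tested genes had an unadjusted p under 0.05. The 3 values rest on the same BMP2ADV libraries. Between hybrid groups the log2 fold change of Id3 lay between -0.02 and 0.02.

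Id4 (ENSMUSG00000021379, chr13:48261228-48266026), an Id gene best known from neural progenitors, was the scarcest of the 8 genes. It had 5.04, 5.16 and 4.50 CPM in BMP2ADV20a, 4.20, 4.88 and 4.73 in BMP2ADV148b, 11.8, 4.21 and 7.01 in BMP2ADV590, and 6.88, 3.71 and 4.29 in BMP2ADV. Replicates 1 and 3 of BMP2ADV590 lay above all other libraries, whereas replicate 2 lay among them. The underlying counts were 167, 47 and 70 in BMP2ADV590 and 93, 40 and 41 in BMP2ADV. A330033J07Rik, which overlaps Id4 on the opposite strand, had at most 4 counts in a library, and counts of Gm49291, on the opposite strand too, were not used here. Id4 averaged 7.67 ± 3.83 CPM in BMP2ADV590, 4.90 ± 0.353 in BMP2ADV20a, 4.60 ± 0.358 in BMP2ADV148b and 4.96 ± 1.69 in BMP2ADV (SD, n = 3 each). In BMP2ADV590 its log2 fold change was 0.63 against BMP2ADV (-0.0045 to 1.26, adjusted p = 0.238), 0.66 against BMP2ADV20a (0.03 to 1.28, adjusted p = 0.323) and 0.75 against BMP2ADV148b (0.10 to 1.40, adjusted p = 0.204). In BMP2ADV20a, the group whose miRNA has a complement in its 3′ UTR, the log2 fold change against BMP2ADV was -0.03 (-0.68 to 0.62).

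Single libraries decided the value of Id4. Without BMP2ADV590 replicate 2, the log2 fold change was 0.92 against BMP2ADV (adjusted p = 0.0497) and 1.04 against BMP2ADV148b (adjusted p = 0.0362), both called, and 0.95 against BMP2ADV20a (adjusted p = 0.0625). Without BMP2ADV590 replicate 1, it was 0.15 against BMP2ADV (adjusted p = 0.851), 0.27 against BMP2ADV148b (adjusted p = 0.75) and 0.18 against BMP2ADV20a (adjusted p = 0.889). Without BMP2ADV replicate 1, it was 0.95 against BMP2ADV (adjusted p = 0.102). Gm42418 took 4.99%, 8.99% and 7.06% of gene counts in BMP2ADV590 replicates 1, 2 and 3, lowest where Id4 was highest, and 5.79%, 6.28% and 10.0% in BMP2ADV. The other groups did not show that order, with 8.17%, 8.43% and 8.08% in BMP2ADV20a and 7.41%, 6.30% and 4.07% in BMP2ADV148b. The lowest share of all 12 libraries, 4.07%, was in BMP2ADV148b replicate 3, where Id4 had 4.73 CPM. With Gm42418 and the mitochondrial genes left out of the counts, the log2 fold change of Id4 was 0.62 against BMP2ADV (adjusted p = 0.243). The scaling was redone for that fit. A link between the Gm42418 share and Id4 was not tested.

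**Figure D3:**
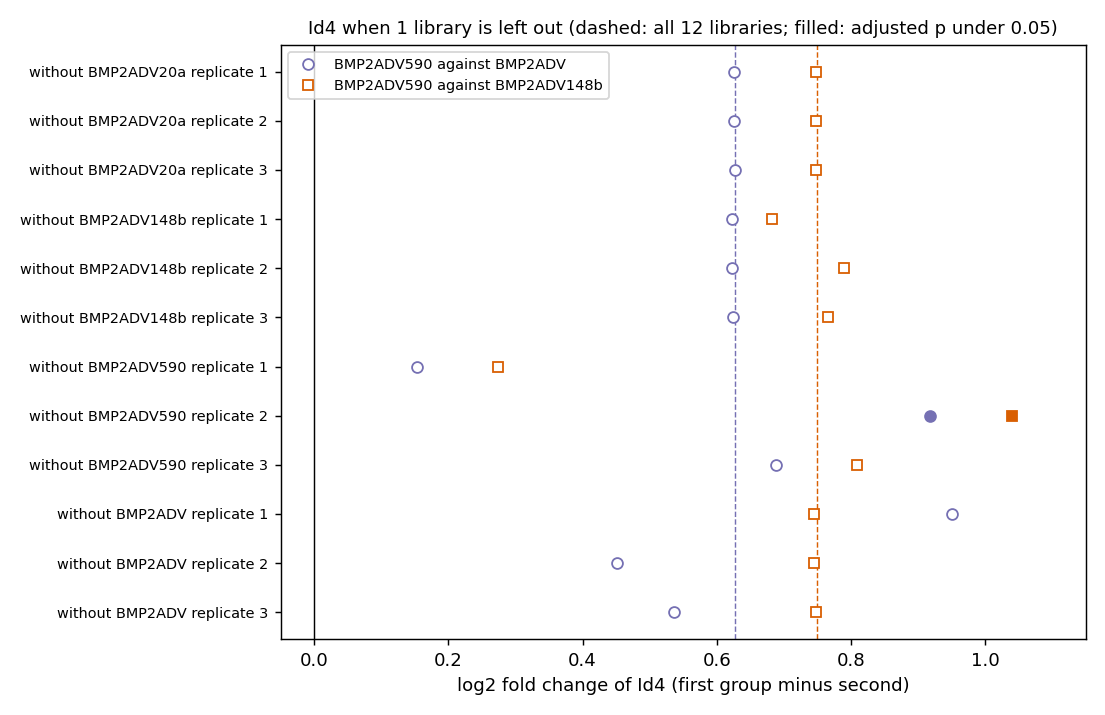
Log2 fold change of Id4 (horizontal axis) in BMP2ADV590 against BMP2ADV (circles) and against BMP2ADV148b (squares) with 1 library left out at a time (vertical axis). Dashed lines are the values with all 12 libraries, 0.63 and 0.75, and filled symbols have an adjusted p under 0.05, which occurs only without BMP2ADV590 replicate 2.

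The rest of the pathway was read from 83 listed genes in groups by role, of which 71 were tested. These lists, too, were chosen with earlier results of these data known. In BMP2ADV20a against BMP2ADV, 0 of the 71 were called by edgeR, 12 had an unadjusted p under 0.05, and DESeq2 called 3 and limma-voom 0. In BMP2ADV148b against BMP2ADV, Bmp2 alone was called, DESeq2 called 3 genes and limma-voom 0. In BMP2ADV590 against BMP2ADV, 9 of the 71 were higher and 8 lower, where 4.37% of all tested genes were called higher and 3.89% lower.

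Upstream of the Smads, Bmp2 had 4.20, 2.99 and 3.00 CPM in BMP2ADV20a, 3.38, 8.27 and 4.42 in BMP2ADV148b, 4.52, 5.82 and 4.81 in BMP2ADV590, and 1.77, 1.39 and 0.733 in BMP2ADV. All hybrid libraries lay above all BMP2ADV libraries, and reads of the plasmid and of the cells' own gene cannot be told apart. The log2 fold change was 1.91 in BMP2ADV590 (adjusted p = 0.0021) and 2.00 in BMP2ADV148b (adjusted p = 0.0326), the second lost without any one of 5 libraries, all 3 of BMP2ADV and replicates 2 and 3 of BMP2ADV148b. Of the other 2 ligands tested, Bmp4 was lower in BMP2ADV590, at 133 ± 26.8 CPM against 192 ± 17.0 in BMP2ADV (log2 fold change -0.53, adjusted p = 0.0018). Among 8 receptor genes tested, the type II receptor Bmpr2 was higher in BMP2ADV590, at 131 ± 3.26 CPM against 99.1 ± 2.83 in BMP2ADV (log2 fold change 0.40, adjusted p = 0.0034), and the other 7 were not called. In the Smad2 and Smad3 branch, which TGF-beta and activin use, 1 of 8 was called, Smad3, at 40.7 ± 5.03 CPM in BMP2ADV590 and 56.0 ± 4.46 in BMP2ADV (log2 fold change -0.47, adjusted p = 0.0080). Of 18 Smad cofactors and modifiers, 1 was called, Pdp1, a pyruvate dehydrogenase phosphatase also reported to act on BMP Smads, at a log2 fold change of -0.73 (adjusted p = 0.0054, and 0.0532 without BMP2ADV replicate 3).

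Downstream, 6 of 15 tested other BMP-Smad target genes were higher and 1 was lower in BMP2ADV590 against BMP2ADV, with a median log2 fold change of 0.24 beside 0.0020 over all tested genes. The list was chosen with earlier results of these data known, so its count and median are a description only. Hey1, a transcriptional repressor, had 169.5, 157 and 161 CPM in BMP2ADV590 and 88.7, 91.6 and 74.3 in BMP2ADV. The groups lay far apart, and the 95% interval of its log2 fold change was 0.74 to 1.13, beside -0.10 to 0.23 for Id1, -0.14 to 0.20 for Id2 and 0.01 to 0.32 for Id3. Dlx5, a homeobox gene of bone-forming cells, had 32.5, 35.0 and 33.0 CPM in BMP2ADV590 and 22.6, 21.8 and 21.6 in BMP2ADV (interval 0.36 to 0.85). Bambi, a pseudoreceptor that blocks signalling, had 115, 89.6 and 89.3 CPM in BMP2ADV590 and 70.2, 65.7 and 46.5 in BMP2ADV (interval 0.41 to 0.96). These 3 intervals do not meet those of Id1, Id2 and Id3, while the interval of Id4 overlaps all of them. Hey1, Dlx5 and Bambi are the called target genes with the lowest adjusted p in edgeR (1.66e-06, 0.0016 and 0.0016). Intervals of the other called target genes are not given here, so the separation is one of selected genes. Whether one gene's change differs from another's was not tested.

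The inhibitory Smad6, which competes with the receptor-regulated Smads, had 167, 118 and 129.8 CPM in BMP2ADV590 and 102, 105 and 95.3 in BMP2ADV. All BMP2ADV590 libraries lay above all BMP2ADV libraries, with replicate 1 the highest, as for Id4. Its log2 fold change was 0.46 (adjusted p = 0.0059) and was 0.29 without BMP2ADV590 replicate 1 (adjusted p = 0.0640). Smad7, the other inhibitory Smad, averaged 56.6 ± 6.20 CPM in BMP2ADV590 and 53.2 ± 4.71 in BMP2ADV (log2 fold change 0.09, adjusted p = 0.728). Nog, which encodes the secreted antagonist noggin, was scarce, at 4.28 ± 1.02 CPM in BMP2ADV590 and 1.42 ± 0.190 in BMP2ADV (adjusted p = 0.0422), and was not called without any one of 5 libraries, all 3 of BMP2ADV and replicates 1 and 3 of BMP2ADV590. The homeobox gene Msx1, named here because it completes the count of 6 and after its values were seen, averaged 35.1 ± 2.01 CPM in BMP2ADV590 and 23.9 ± 4.50 in BMP2ADV (log2 fold change 0.55, adjusted p = 0.0185, up to 0.135 and not called without BMP2ADV replicate 3 or BMP2ADV590 replicate 1 or 3). Hes1, a repressor related to Hey1, was the lower one, at 194 ± 12.5 CPM in BMP2ADV590 and 247 ± 23.8 in BMP2ADV (log2 fold change -0.35, adjusted p = 0.0092, and 0.0709 without BMP2ADV replicate 3). The lists share genes, as Smad6, Smad7, Bambi and Nog are both target genes and antagonists or inhibitors. Among 13 antagonists and inhibitors, Grem1, Bambi, Smad6 and Nog were higher and none was lower. Without BMP2ADV590 replicate 1 these counts were 2 higher and 1 lower, without replicate 2 they were 5 and 0, and without replicate 3 or any one BMP2ADV library they were 3 and 0. The count of 6 higher target genes was 3 without BMP2ADV590 replicate 1, 7 without replicate 2 and 4 without replicate 3, and 5, 5 and 4 without BMP2ADV replicates 1, 2 and 3. The summed level of 5 chondrocyte markers, 4 of them tested, averaged 5304 CPM in BMP2ADV590 and 3119 in BMP2ADV. It averaged 3684 CPM in BMP2ADV20a and 3496 in BMP2ADV148b, with 2798 to 5599 over the 12 libraries. Sox9, at 1530 to 3129 CPM, and Col2a1, at 1009 to 1845 CPM, made up most of it. The part of these markers in the result was not tested.

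**Figure D4:**
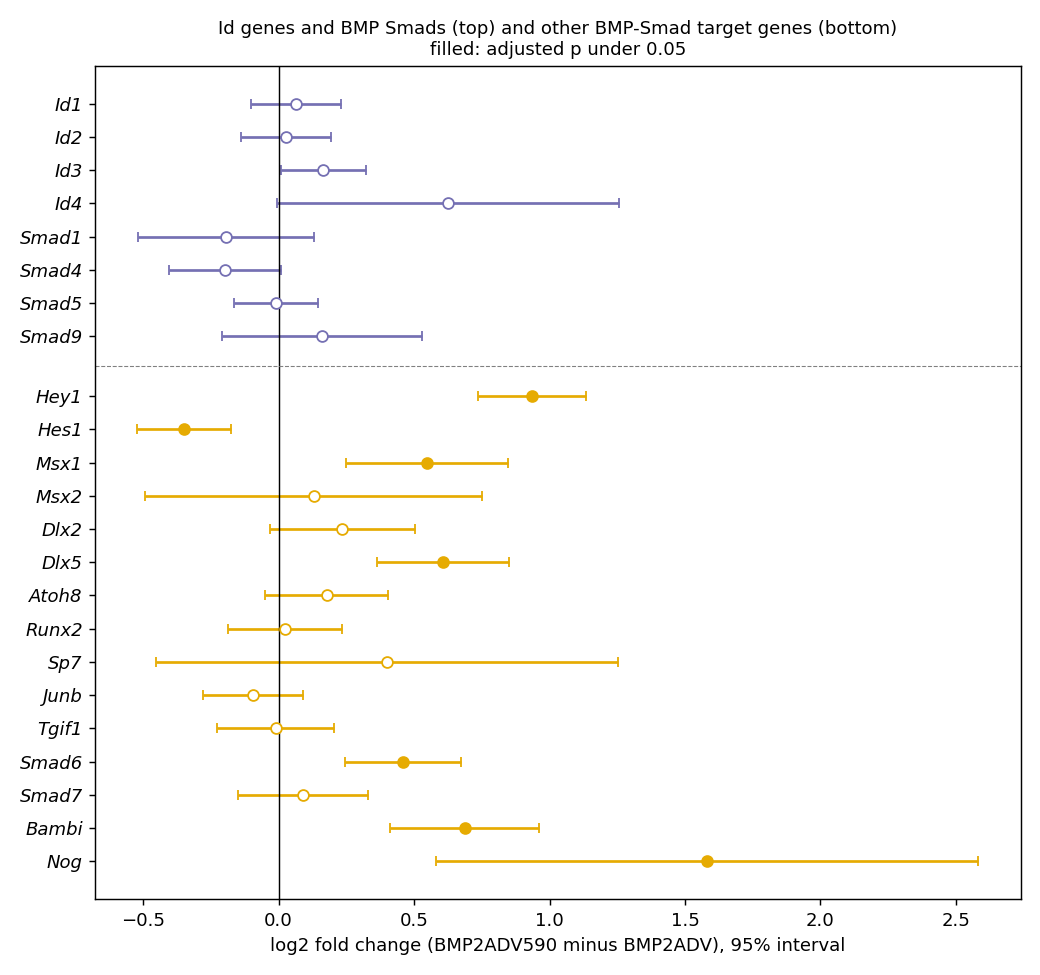
Log2 fold change in BMP2ADV590 minus BMP2ADV (horizontal axis) with its 95% interval for the 8 Id and Smad genes (top) and the 15 tested other BMP-Smad target genes (bottom). Filled symbols have an adjusted p under 0.05, which holds for 7 of the 15 and for none of the 8. The share over all tested genes was 8.26%, and none of 8 is near that share. Both sets were chosen with earlier results of these data known.

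Id proteins act through helix-loop-helix partners and have been tied to cell cycle genes. Of 8 tested E proteins and helix-loop-helix partners, 1 was higher and 2 were lower in BMP2ADV590 against BMP2ADV. They were Hey1, Hes1 and the tendon factor Scx, which averaged 4.19 ± 1.22 CPM in BMP2ADV590 and 8.55 ± 1.40 in BMP2ADV (log2 fold change -1.04, adjusted p = 0.0091, and up to 0.0612 and not called without BMP2ADV replicate 3 or BMP2ADV590 replicate 1). Hey1 and Hes1 are also among the target genes counted above. Of 6 tested cell cycle genes, 3 were lower and none was higher, with a median log2 fold change of -0.30. The cyclin D1 gene Ccnd1 had 381, 336 and 414 CPM in BMP2ADV590 and 553, 635 and 657 in BMP2ADV, with no overlap (log2 fold change -0.70, adjusted p = 1.56e-05). The others encode inhibitors of the kinases that cyclin D activates. They were Cdkn2a (log2 fold change -0.47, adjusted p = 0.0178, not called without BMP2ADV replicate 1 or BMP2ADV590 replicate 3) and Cdkn2b (-0.50, adjusted p = 0.0432). The call of Cdkn2b was lost without any one of 7 libraries, which were all 3 of BMP2ADV, replicates 1 and 2 of BMP2ADV590, replicate 3 of BMP2ADV20a and replicate 2 of BMP2ADV148b. It was also lost without the filter on low counts, with only the 2 groups compared and with the replicate block (adjusted p up to 0.0701).

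As a description, the 3 genes most like each member other than Id2 were taken by Pearson correlation of log2 CPM over the 12 libraries, among 8737 other genes. All values share libraries and depth, and the highest of so many correlations is high by selection. They were Actn4, Myl12b and Cpeb2 for Id4 (0.94, 0.91 and 0.90) and Jun, Phip and Nt5c3 for Smad1 (0.92, 0.88 and 0.86). For Smad4 they were Lactb, Tma16 and Zfp961 (0.93, 0.89 and 0.89). Id3 was followed by Ctdspl, Chmp5 and Crtap (0.89, 0.88 and 0.87), Smad9 by Fbxo11, Rnf138 and Fbxw11 (0.89, 0.84 and 0.83), Smad5 by Dusp19, Parp11 and Taf4b (0.86, 0.86 and 0.84) and Id1 by Gtf2f2, Pam and Vps51 (0.85, 0.84 and 0.83). The 8 genes were left out of those compared. Between the members themselves, the correlation ran from -0.57 (Id1 and Smad4) to 0.64 (Id1 and Id4).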

How the data were processed

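RNA of 12 libraries, 3 per group by their titles, was made into QuantSeq 3′ libraries per the labels' protocols. The deposited values are raw counts per gene. Per the submitters' processing notes, FastQC 0.11.5, STAR 2.5.2a and HTSeq 0.6.0 were used with GRCm38. The counting mode, the strandedness and the annotation version were not given in the sources used here. Whether reads of opposite-strand genes were kept apart is therefore not known. Records not assigned to a gene (52.2% to 54.4% of each library) were left out. Most of these were alignments that were not unique (41.5% to 44.5% of each library). Symbols were found for 47224 of 47643 IDs in GENCODE M21.

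One edgeR 4.0.16 model (R 4.3.3) with a mean per group was fitted to all 12 libraries, with TMM scaling, filterByExpr and the quasi-likelihood F-test. P-values of the 13229 genes tested were adjusted with the Benjamini-Hochberg method, and 0.05 was the threshold. DESeq2 1.42.0 and limma-voom (limma 3.58.1) were alternatives, with other scaling, filters, a replicate block and each library left out. The script was tested on simulated data. Differences are log2 fold changes, first group minus second, and intervals are 95% intervals of the fit. Reads carry no molecular identifiers.

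Members and lists were chosen with earlier results of these data known. Named were all 8 members, Bmp2 and Mir148b, Smad6, Smad7, Bambi and Nog, up to 4 called genes of each list by smallest p per hybrid group, and the 3 genes most correlated with each member among those with a mean of at least 10 CPM. The genes most correlated with Id2 are not reported here. Whether replicate numbers pair the samples is not known (closing section).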

Additional observations from a re-analysis of the deposited data

Results flagged for a closer look

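None of the 8 genes Id1 to Id4, Smad1, Smad4, Smad5 and Smad9 differed between hybrid groups by a test of that difference, and groups of 3 libraries are too small for a test of outlying samples. Other genes of the pathway did differ between the effects of 2 hybrid plasmids, tested directly as the difference between the hybrid groups (edgeR). Between BMP2ADV590 and BMP2ADV20a the log2 difference was 0.32 for Bmpr2, 0.59 for Bambi, 0.47 for Smad6, 0.53 for Hey1, 0.48 for Dlx5 and -0.62 for Ccnd1. Between BMP2ADV590 and BMP2ADV148b it was 0.35 for Bmpr2, -0.46 for Bmp4, 0.41 for Grem1, 0.59 for Bambi, 0.53 for Hey1, -0.57 for Cdkn2b and -0.56 for Ccnd1. Tcf12, an E protein gene named after its values were seen, was also lower in BMP2ADV590 than in BMP2ADV148b (-0.27, adjusted p = 0.0480). Hey1 and Ccnd1 were called in both with any 1 library left out, Hey1 with adjusted p up to 0.0426 against BMP2ADV20a and 0.0223 against BMP2ADV148b. The other calls depended on single libraries. Against BMP2ADV20a, Bmpr2 was lost without any one of 10 libraries, Dlx5 of 5, Smad6 of 3 and Bambi of 2. Against BMP2ADV148b, Tcf12 was lost without any one of 10 libraries, Grem1 of 5, Cdkn2b of 4, Bmpr2 of 3, and Bmp4 and Bambi of 2 each. With the replicate block and with only the 2 groups compared, Bmpr2 and Dlx5 were lost against BMP2ADV20a, and Cdkn2b and Tcf12 against BMP2ADV148b. Tcf12 was lost without the filter on low counts as well.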

How the results depend on the processing

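Of 912 values of the 8 genes under 19 alternatives, 2 were called, both of Id4 without BMP2ADV590 replicate 2. The number of the 8 called therefore ran from 0 to 1 with 1 library left out, in BMP2ADV590 against BMP2ADV and against BMP2ADV148b, and was 0 elsewhere. The number of all genes called moved more. In BMP2ADV20a against BMP2ADV it was 63, and 127 with DESeq2, 184 without a filter on low counts, 145 with only the 2 groups compared, 36 with the replicate block and 18 to 108 with 1 library left out. In BMP2ADV148b against BMP2ADV it was 33, and 82 with DESeq2, 126 without the filter, 14 with the replicate block and 3 to 60 with 1 library left out. In BMP2ADV590 against BMP2ADV20a it was 287, and 519 without the filter, 172 with the replicate block and 64 to 489 with 1 library left out. In BMP2ADV20a against BMP2ADV148b it was 74, and 137 without the filter and 22 to 93 with 1 library left out. With 1 library left out it was 565 to 1115 in BMP2ADV590 against BMP2ADV (1093), 241 to 656 in BMP2ADV590 against BMP2ADV148b (586) and 548 to 891 among the 4 groups (827). The cause was not tested. The replicate block assumes pairing. Deviations of same-numbered libraries correlated at -0.113 to 0.0715, so no strong shift shared by replicate number was seen. A low correlation cannot show that the samples are unpaired, and the labels do not state it. With the block, 0 of the 8 genes were called. Scaling by DESeq2 size factors moved the median of all genes by less than 0.01. Depth limits Id4 most, at 40 to 167 counts per library, then Smad9 at 87 to 190 counts.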
